A study of Bos taurus with 6 samples.

Results

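Factors that shorten the poly(A) tail of mRNAs and carry them into decay were followed in day-7 bovine blastocysts. Of 9 genes looked up by symbol, 5 were represented on the array, by 9 probe sets among the 24016 tested: CNOT7 and CNOT2 (1 probe set each), ZFP36L1 (3), ZFP36L2 (2) and PNRC2 (2). Among all tested probe sets, 9155 genes were named. The deadenylase CNOT8, the oocyte deadenylation adaptor BTG4, the decapping enzyme DCP2 and the nonsense-mediated decay helicase UPF1 had no probe set under their symbols and were not analysed here. PNRC2 had been picked for its lower signal in the superovulated group, and CNOT7 and ZFP36L1 for their spread within groups, so their values are given as a description that no test supports.

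Decay of most mRNAs begins with removal of the poly(A) tail by the CCR4-NOT complex, whose catalytic subunits include CNOT7 and CNOT8. RNA-binding proteins such as the ZFP36 family bring the complex to AU-rich elements in 3' UTRs. The shortened mRNA then loses its cap to DCP2 and its coactivators. In mammals this machinery clears maternal transcripts when the oocyte matures and the embryonic genome takes over.

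Of the 6 samples, each hybridized to 1 Affymetrix GeneChip Bovine Genome Array, 3 were superovulated and 3 synchronized. The superovulated blastocysts developed up to day 7 in Simmental heifers that had been superovulated and inseminated. The synchronized blastocysts also came from superovulated, inseminated donors, but were flushed on day 2 at the 2-cell stage and transferred by endoscope to heifers that had been synchronized only, where they stayed to day 7. All embryos therefore shared stimulated donors, while only the synchronized embryos were flushed and transferred. The sources used here give neither the number of embryos per array nor whether a group's arrays stem from different animals, so p-values reflect array-to-array spread that may be purely technical. Values are the authors' log2 expression values. A difference is the superovulated mean minus the synchronized mean of log2 values, and means carry the SD of n = 3 arrays.

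Most probe sets lay near background, with array medians between 2.75 and 2.80, and the number above log2 4 was 1457 to 1894 on superovulated arrays and 973 to 1850 on synchronized arrays. The 3 synchronized arrays correlated with one another at 0.752 to 0.899 across probe sets, against 0.928 to 0.974 among the superovulated arrays. Between the groups the correlations were 0.758 to 0.892, close to those among the synchronized arrays. Of 9 measured trophectoderm markers, 4 exceeded log2 4 on at least 1 array, and 2 of these passed. KRT18 read 7.74 to 8.11 on superovulated and 3.55 to 4.90 on synchronized arrays (limma adjusted p = 0.0410). DAB2 read 4.85 to 5.02 on superovulated and 2.32 to 3.14 on synchronized arrays (limma adjusted p = 0.0387). EZR differed by 2.18 without overlap (limma adjusted p = 0.0602), and ATP1B1 by -0.32 with overlap. KRT8 and the pluripotency gene SOX2 stayed at or below 2.44 on every array. Among other lineage markers, 4 were higher on all superovulated than on all synchronized arrays without passing the test (limma adjusted p of 0.0886 to 0.182): POU5F1 (3.24 to 3.54 superovulated, 2.40 to 2.73 synchronized), KLF4 (4.83 to 5.53 superovulated, 3.58 to 4.08 synchronized), and GATA6 and FN1 of the primitive endoderm (differences 2.12 and 2.23). The groups overlapped for the primitive endoderm markers GATA4, HNF4A and PDGFRA (differences -0.20, -0.07 and 0.07). They also overlapped for the inner cell mass marker SPP1 (-0.06). The 7 measured blood markers never exceeded log2 4. The 3' probe set of GAPDH read 8.67 to 9.14 on superovulated and 7.20 to 8.35 on synchronized arrays, and its 5' probe set read 2.60 to 3.03 over all arrays.

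Across the 9 probe sets of the decay factors, 1 lay higher on every superovulated than on every synchronized array (CNOT2), 1 lay lower (PNRC2) and 7 overlapped. Over all tested probe sets, 5.42% were higher and 7.89% lower without overlap. By limma (adjusted p below 0.05 over all probe sets) 1 of the 9 was called, the PNRC2 probe set. Of all probe sets 0.716% were called, 0.695% higher and 0.0208% lower. Since PNRC2 was chosen for its difference, nothing is read from its place in these counts. Only 3 of the 9 had a mean above log2 4, and 5 never exceeded it on any array. In bulk embryos, fewer cells of a type and less RNA per cell cannot be told apart.

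**Figure D1:**
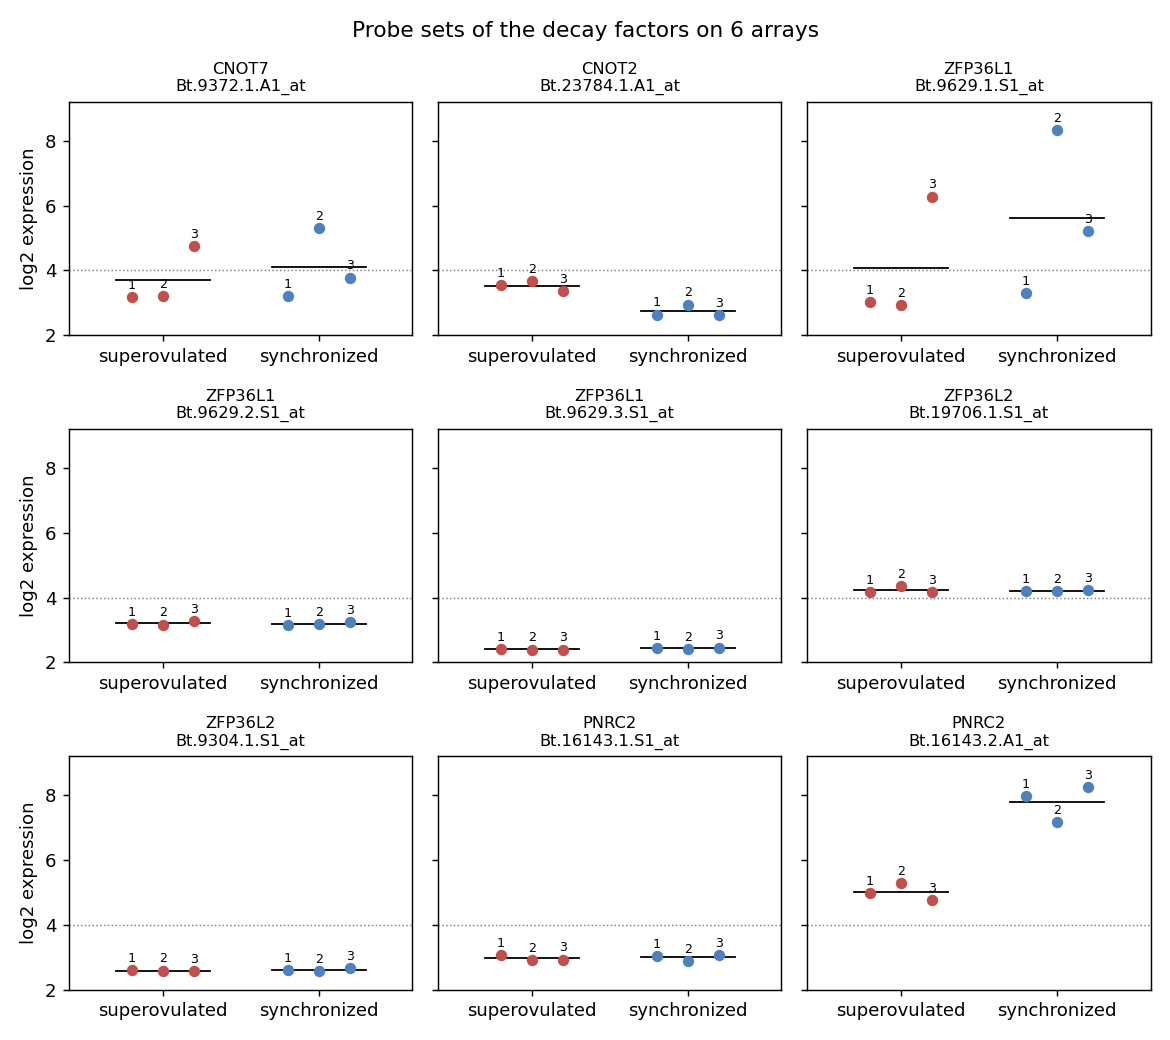
Log2 expression of each decay factor probe set (vertical axis) on the superovulated (left, red) and synchronized (right, blue) arrays, with array numbers above the points, group means as black lines and log2 4 as a dotted line. The bright PNRC2 probe set (the last panel) separates the groups with a gap of 1.88, whereas ZFP36L1 and CNOT7 vary within both groups and the other probe sets stay between 2.40 and 4.35.

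CNOT7, a catalytic deadenylase subunit of CCR4-NOT, read 3.17, 3.21 and 4.75 on superovulated arrays 1 to 3, against 3.20, 5.32 and 3.78 on synchronized arrays 1 to 3. It was high on 1 array of each group, superovulated array 3 and synchronized array 2, and the groups overlapped. The means were 3.71 ± 0.90 in superovulated and 4.10 ± 1.10 in synchronized blastocysts, a difference of -0.39, smaller than the range within either group (1.58 superovulated, 2.12 synchronized). Without synchronized array 2 the difference turned to 0.22. Of all tested probe sets, 205 had a wider range among the superovulated and 494 among the synchronized arrays.

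CNOT2, a scaffold subunit that joins CCR4-NOT to its regulatory partners, read 3.54, 3.66 and 3.37 on superovulated arrays, against 2.64, 2.95 and 2.63 on synchronized arrays. All 3 superovulated arrays stood above all 3 synchronized ones, but every value was under log2 4, near background. The difference of 0.78 (95% interval 0.47 to 1.10) did not pass in limma over all probe sets (adjusted p = 0.0996). Once each array was centred on its bright probe sets, those with a mean above log2 4, it was 0.09. That centring lowers the difference of every probe set by the same amount, so the change is not particular to CNOT2. In the other settings the CNOT2 difference stayed between 0.715 and 0.965.

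ZFP36L1, a CCCH zinc finger protein that binds AU-rich elements and recruits deadenylases, showed the widest variation of these genes. Its bright probe set read 3.02, 2.93 and 6.28 on superovulated arrays, against 3.30, 8.32 and 5.21 on synchronized arrays. Its signal was near background on superovulated arrays 1 and 2 and synchronized array 1, and clearly above it on the other 3 arrays, so the division ran across the groups. Only 15 probe sets had a wider range among the superovulated arrays (3.35) and only 13 among the synchronized arrays (5.02). The group means were 4.08 ± 1.91 superovulated and 5.61 ± 2.53 synchronized. Their difference of -1.53 moved to -0.18 without synchronized array 2 and to -2.64 without superovulated array 3.

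The other probe sets of ZFP36L1 did not show this pattern. The second read 3.17 to 3.27 on superovulated and 3.16 to 3.25 on synchronized arrays, and the third read 2.40 to 2.42 on superovulated and 2.41 to 2.46 on synchronized arrays. Both lay near background on every array, including those where the first was bright, so the variation of ZFP36L1 rests on 1 of 3 probe sets.

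ZFP36L2, its close relative and in mice a maternal factor needed for female fertility, was steady on its brighter probe set, where the bright ZFP36L1 probe set varied. Its brighter probe set read 4.18, 4.35 and 4.18 on superovulated arrays, against 4.20, 4.19 and 4.23 on synchronized arrays. The groups overlapped, with a difference of 0.03 (95% interval -0.11 to 0.17, limma adjusted p = 0.755). This difference turned to -0.35 after a second quantile normalization and to -0.66 after centring on bright probe sets, with no call in either. The centring lowers every probe set's difference by the same amount. The second probe set lay near background at 2.57 to 2.60 on superovulated and 2.58 to 2.66 on synchronized arrays, a difference of -0.03 (limma adjusted p = 0.636).

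**Figure D2:**
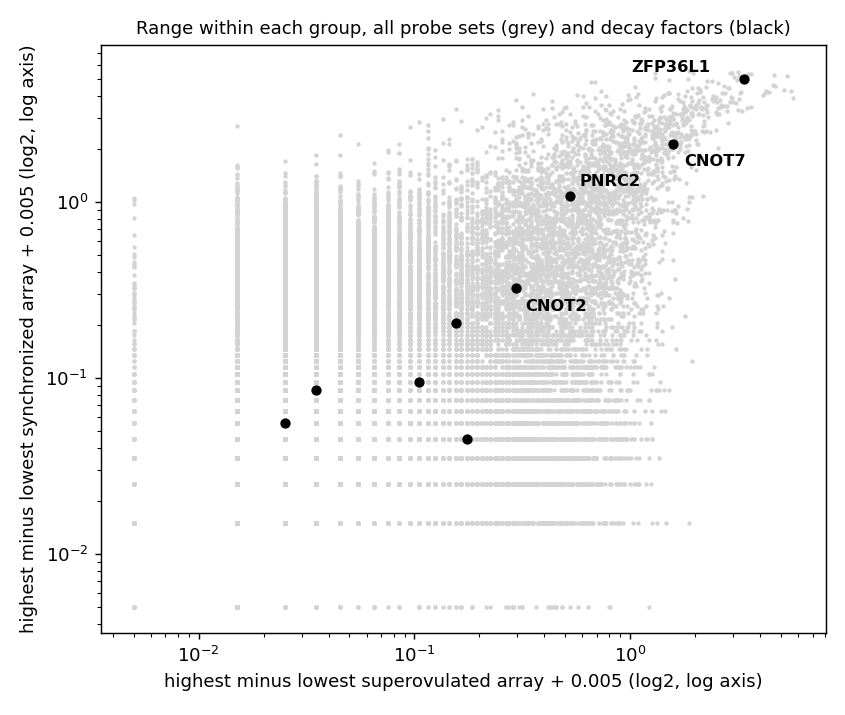
Highest minus lowest array within the superovulated group (horizontal axis) and within the synchronized group (vertical axis), in log2 units plus 0.005 on log axes, for all tested probe sets (grey) and the 9 decay factor probe sets (black, the 4 with the widest ranges on synchronized arrays named). ZFP36L1 (3.35 and 5.02) and CNOT7 (1.58 and 2.12) lie at the upper right edge, which is what they were picked for.

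CNOT7 and ZFP36L1 shared their 3 highest arrays in the same order: synchronized 2, superovulated 3, synchronized 3. That order was common, found in 449 of the 2881 probe sets above log2 4 on at least 1 array (15.6%), and in 271 of the 470 that also ranged over more than 1 log2 unit within each group (57.7%). Of 32 mRNA decay genes above log2 4 on at least 1 array, 3 had it (9.38%): CNOT7, ZFP36L1 and MEX3C, a ubiquitin ligase that binds RNA. MEX3C read 3.74, 3.69 and 4.38 on superovulated and 3.81, 5.28 and 3.86 on synchronized arrays, a far smaller spread than that of ZFP36L1.

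Marker lists of oocyte and of cumulus and granulosa cells had the same 3 highest arrays. The mean of 9 measured oocyte markers was 2.96, 3.01 and 3.55 on superovulated arrays, against 2.80, 4.31 and 3.12 on synchronized arrays, with 3 of the 9 above log2 4 on any array. These were KPNA7, ZP2 and ZP4, at 9.02, 6.14 and 5.35 on synchronized array 2. The other measured oocyte markers stayed at or below 3.43 on every array. The mean of 11 cumulus and granulosa markers was 3.21, 3.22 and 3.86 on superovulated arrays, against 3.27, 4.14 and 3.49 on synchronized arrays, with 4 of the 11 above log2 4 on any array. The summed signal on the log2 scale spanned 6.79 to 8.23 on superovulated and 6.07 to 9.41 on synchronized arrays for the oocyte list, and 6.84 to 8.46 on superovulated and 6.92 to 9.17 on synchronized arrays for the cumulus and granulosa list. The mean of 8 oviduct and uterus markers was 2.85, 2.96 and 3.40 on superovulated arrays, against 2.70, 3.17 and 2.95 on synchronized arrays, with OVGP1, the oviductal glycoprotein, at or below 2.26 on every array. Within these lists the markers were uneven. TNFAIP6, whose product cross-links the cumulus matrix, read 3.05, 2.99 and 7.38 on superovulated and 4.25, 8.47 and 5.96 on synchronized arrays. The inhibin gene INHA stood at 4.79, 4.85 and 6.64 on superovulated and 4.85, 6.79 and 4.87 on synchronized arrays. UCHL1, placed in the oviduct and uterus list, read 2.56, 3.20 and 7.12 on superovulated and 3.22, 7.85 and 5.31 on synchronized arrays. Its 3 highest arrays had the same order as those of the oocyte markers KPNA7, ZP2 and ZP4, so no tissue of origin is read from it. The other granulosa markers above log2 4 were PTX3, at most 5.21 on synchronized array 2, and HAS2, at most 4.05 on superovulated array 2. TNFAIP6, INHA and UCHL1 were thus highest on synchronized array 2 and next on superovulated array 3, as ZFP36L1 was. The granulosa markers FSHR, CYP19A1 and AMH instead stayed at or below 3.38 on every array. COL1A2, the 1 marker of the cumulus and granulosa list that passed, stayed below log2 4. It read 3.60 to 3.76 on superovulated and 2.93 to 3.06 on synchronized arrays (limma adjusted p = 0.0316). The complement gene C3 of the oviduct and uterus list was also higher on all superovulated arrays. It read 5.29 to 5.95 on superovulated and 2.78 to 3.38 on synchronized arrays (limma adjusted p = 0.0373). The 2 arrays with most probe sets above log2 4 were superovulated array 3 (1894) and synchronized array 2 (1850). The part of these in the variation of CNOT7 and ZFP36L1 was not tested.

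**Figure D3:**
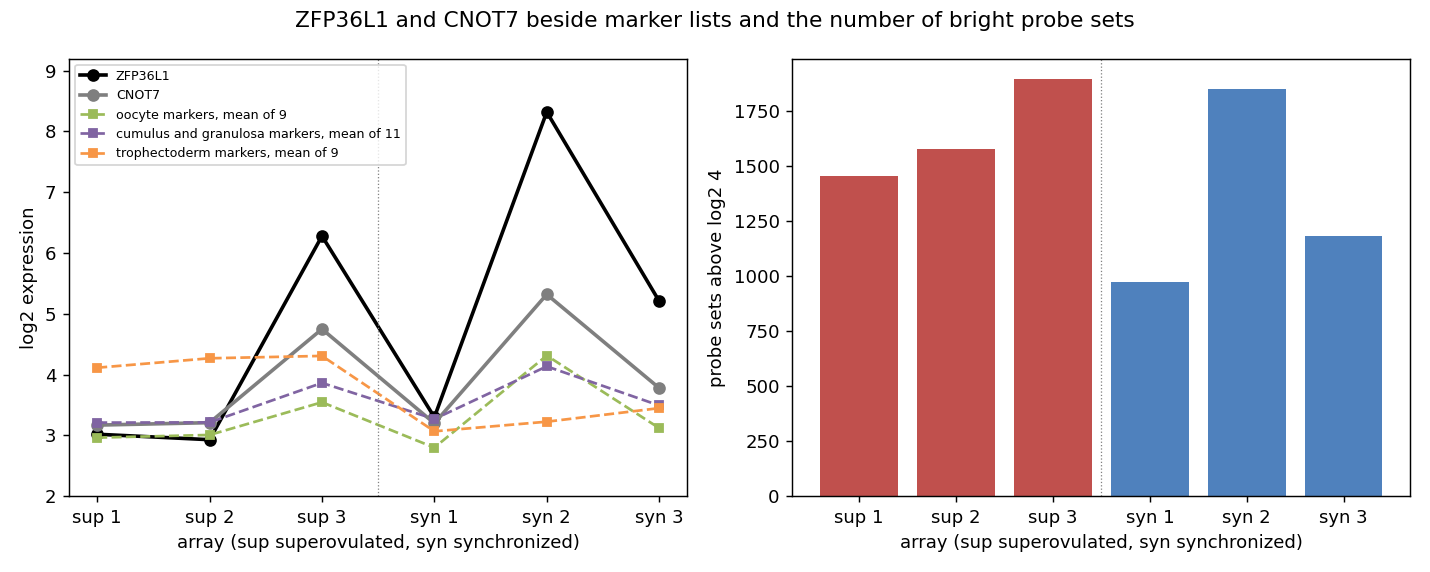
Left, log2 expression of ZFP36L1, CNOT7 and the means of 3 marker lists on each array; right, the number of probe sets above log2 4 per array, superovulated in red and synchronized in blue. ZFP36L1 peaks at 6.28 on superovulated array 3 and at 8.32 on synchronized array 2, where the oocyte mean reaches 3.55 and 4.31, while the trophectoderm mean is 4.11 to 4.31 on superovulated and 3.07 to 3.45 on synchronized arrays.

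PNRC2, a nuclear receptor coactivator that also binds the decapping coactivator DCP1A and UPF1 and so links nonsense-mediated decay to decapping, was the factor with the largest group difference. Its bright probe set read 4.97, 5.29 and 4.77 on superovulated arrays, against 7.97, 7.17 and 8.24 on synchronized arrays. The groups were apart by 1.88 at their closest, and the signal stayed above log2 4 on all 6 arrays. The means were 5.01 ± 0.26 in superovulated and 7.79 ± 0.56 in synchronized blastocysts, a difference of -2.78 or 6.88-fold. Of all tested probe sets 12 had a lower difference, while the 1406 bright probe sets had a median difference of 0.59. Of the 1406 bright probe sets, 1009 were higher in superovulated blastocysts. PNRC2 was picked for its lower signal, so nothing is read from its direction, size or rank. The spiked bacterial and phage hybridization controls also separated the groups, averaging 12.65, 12.69 and 12.68 (superovulated) against 13.14, 12.91 and 13.54 (synchronized, in array order), with the synchronized arrays in the same order as for PNRC2. Their part in the PNRC2 difference was not tested. It did not follow the order of arrays seen in CNOT7 and ZFP36L1: synchronized array 2, their highest, was the lowest of the synchronized arrays for PNRC2.

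The second PNRC2 probe set read 3.07, 2.92 and 2.93 on superovulated arrays, against 3.05, 2.87 and 3.07 on synchronized arrays. It lay near background on all 6 arrays and differed by -0.02, so the lower signal of PNRC2 rests on 1 of 2 probe sets. Leaving out each array in turn gave differences of -3.10 to -2.56 for the bright probe set, and a second quantile normalization gave -3.47.

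The genes nearest to each of the 3 picked factors were taken from the probe sets with 1 symbol and a value above log2 4 on at least 1 array (1885 besides the factor's own). Nearness was the root mean square difference over the 6 arrays after centring each probe set on its own mean. For PNRC2 they were NHLRC2 (0.34), the endoplasmic reticulum chaperone gene CLGN (0.36), LOC100174924 (0.49) and PRPSAP2 (0.49), a partner of phosphoribosyl pyrophosphate synthetase. CLGN on that probe set read 3.16, 3.21 and 3.28 on superovulated arrays, against 6.98, 5.72 and 6.99 on synchronized arrays. These 4 genes, chosen for their likeness to PNRC2, were lower on every superovulated array, and each had its lowest synchronized value on array 2.

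For CNOT7 the nearest were the metalloproteinase inhibitor gene TIMP2 (0.12), the proton pump gene ATP6V1C1 (0.14), the kinetochore gene CENPF (0.16) and the signal peptidase gene SPCS1 (0.17). For ZFP36L1 they were CKS1B (0.18), a subunit of cyclin-dependent kinases, the G-protein signalling regulator RGS16 (0.20), LOC100848703 (0.32) and the spindle gene TACC3 (0.33). CKS1B read 3.22, 3.30 and 6.24 on superovulated and 3.22, 8.38 and 5.05 on synchronized arrays. All 8 genes were highest on synchronized array 2 and next highest on superovulated array 3, an order that choosing them by nearness to CNOT7 and ZFP36L1 favours.

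**Figure D4:**
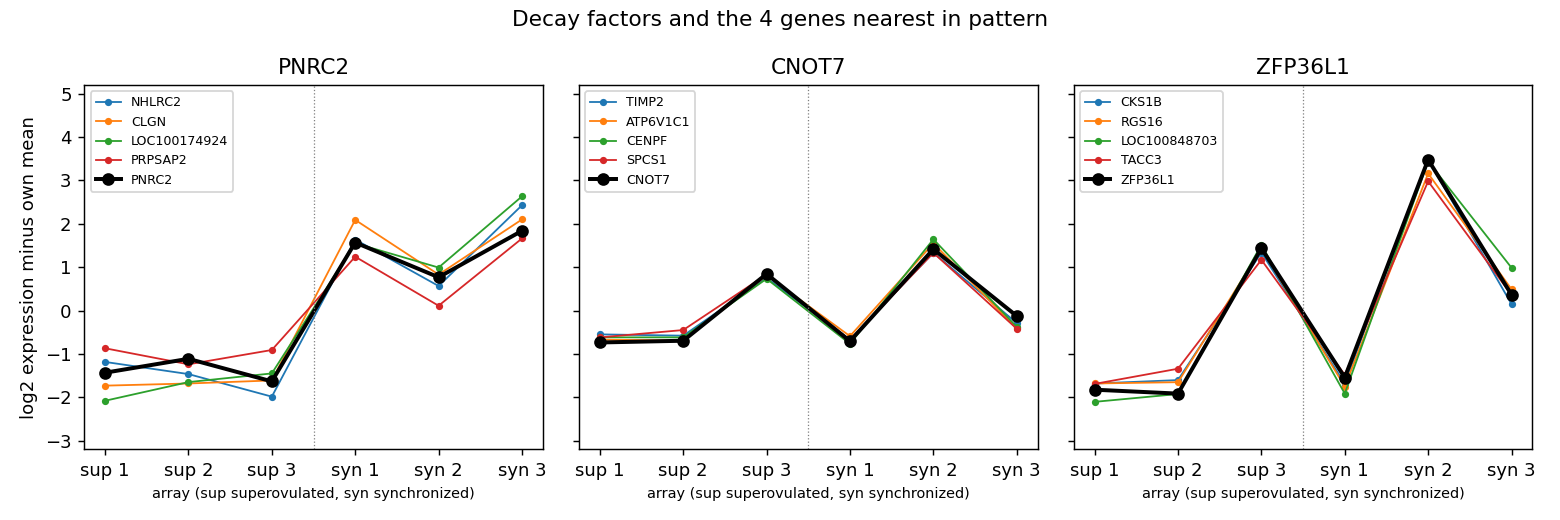
Log2 expression minus the probe set's own mean on the 6 arrays for PNRC2, CNOT7 and ZFP36L1 (black) and the 4 genes nearest to each in pattern (colours). PNRC2 and its neighbours step between the groups, while CNOT7 (nearest distances 0.12 to 0.17) and ZFP36L1 (0.18 to 0.33) peak on superovulated array 3 and synchronized array 2.

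The wider mRNA decay machinery was read from 5 lists of 128 genes, of which 81 were measured, each read on its brightest probe set on average. Apart from the decay factors above, 76 genes remained, and of these DCP1B rose in superovulated blastocysts and 0 fell in the limma test over all probe sets. Among all 9155 genes, 1.30% rose and 0.0218% fell by the same rule, so 1 rise among 76 is near the background. The median difference of the 76 was 0.02, against -0.02 over all genes. The 15 of them averaging above log2 4 gave a median of 0.34, against 0.65 over all 925 such genes. Without overlap between the arrays of the groups, 12 of the 76 were higher and 3 lower, where all genes gave 9.06% higher and 7.86% lower.

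DCP1B, a coactivator of the decapping enzyme and paralogue of DCP1A, read 4.71, 5.13 and 5.21 on superovulated arrays, against 2.92, 2.96 and 2.72 on synchronized arrays. The groups stood well apart, with the synchronized signal near background. The difference was 2.15 (95% interval 1.75 to 2.55, limma adjusted p = 0.0195). A second DCP1B probe set differed by 0.14. The call was kept without superovulated array 1 (adjusted p = 0.0214) and lost without any other single array (adjusted p = 0.0551 to 0.0872). DCP1B and PNRC2, both partners of decapping, lay in opposite directions. As PNRC2 was picked for its lower signal, nothing is read from this. In the decapping list 18 of 24 genes were measured and the median difference was 0.02.

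Other decapping genes did not pass. LSM4, of the ring that binds deadenylated 3' ends, averaged 6.04 ± 0.08 in superovulated and 4.16 ± 0.83 in synchronized blastocysts (limma adjusted p = 0.280). Differences were 1.26 for the decapping enzyme gene NUDT16 and 0.78 for the P-body gene LSM14A (limma adjusted p = 0.636 each). A second LSM14A probe set differed by -0.04. XRN2, the nuclear 5' to 3' exonuclease of the list, averaged 3.93 ± 0.02 in superovulated and 4.20 ± 0.24 in synchronized blastocysts (limma adjusted p = 0.636). Every superovulated array was below every synchronized one, by 3.94 against 3.95 at the closest. The other XRN2 probe sets overlapped between the groups, with differences of -0.07 and 0.003. On the probe set read for each, the decapping regulator genes EDC3, EDC4, DCP1A and PATL1 lay at or below 3.17 on every array.

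In the deadenylation list 15 of 24 genes were measured, 0 passed and the median difference was 0.34. The CCR4-NOT subunit gene CNOT10 averaged 4.28 ± 0.93 in superovulated and 3.13 ± 0.01 in synchronized blastocysts, and the deadenylase gene CNOT6 averaged 3.16 ± 0.26 in superovulated and 2.82 ± 0.10 in synchronized blastocysts. As with CNOT2, every superovulated array was above every synchronized one for both, though limma gave adjusted p = 0.636 for each. PABPC1, the cytoplasmic poly(A)-binding protein, differed by 1.07 and the antiproliferative adaptor gene TOB2 by -0.07 (limma adjusted p = 0.636 each). The other PABPC1 probe sets differed by -0.16 to 1.13.

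Nonsense-mediated decay and exon junction genes were mostly near background, with 13 of 18 measured, 0 with a mean above log2 4, 0 passing and a median difference of -0.01. RBM8A, a core protein of the exon junction complex, averaged 4.05 ± 0.16 in superovulated and 2.50 ± 0.33 in synchronized blastocysts, a difference of 1.54 (95% interval 1.05 to 2.03) just outside the threshold (limma adjusted p = 0.0576). UPF3B, SMG8 and SMG9 of the same pathway differed by -0.12, -0.06 and 0.07.

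The list of the RNA exosome and other 3' decay factors had 16 of 23 genes measured, 0 passing and a median difference of -0.03. EXOSC9 of the exosome ring was its brightest member, at 7.46 ± 0.32 in superovulated and 6.69 ± 0.24 in synchronized blastocysts (limma adjusted p = 0.411). The Ski complex gene SKIC8 differed by 1.32, the terminal uridylyltransferase gene TUT7 by 0.47 and the exosome-associated MPHOSPH6 by -0.26 (limma adjusted p = 0.382, 0.636 and 0.109).

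Among proteins that bind mRNA 3' ends, 19 of 39 genes were measured, 0 passed and the median difference was -0.03. HNRNPD, known as AUF1 and a binder of AU-rich elements, averaged 6.05 ± 0.26 in superovulated and 4.15 ± 0.65 in synchronized blastocysts, a difference of 1.90 (limma adjusted p = 0.171). IGF2BP1, which stabilizes bound mRNAs, differed by 1.14, and YTHDF2, the reader of methylated adenosine that recruits CCR4-NOT, by 0.89 (limma adjusted p = 0.170 and 0.320). AGO3 differed by -0.04 near background. ZFP36, the founding member of the ZFP36 family, read 2.81 to 3.17 on superovulated and 3.02 to 3.36 on synchronized arrays, near background throughout.

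**Figure D5:**
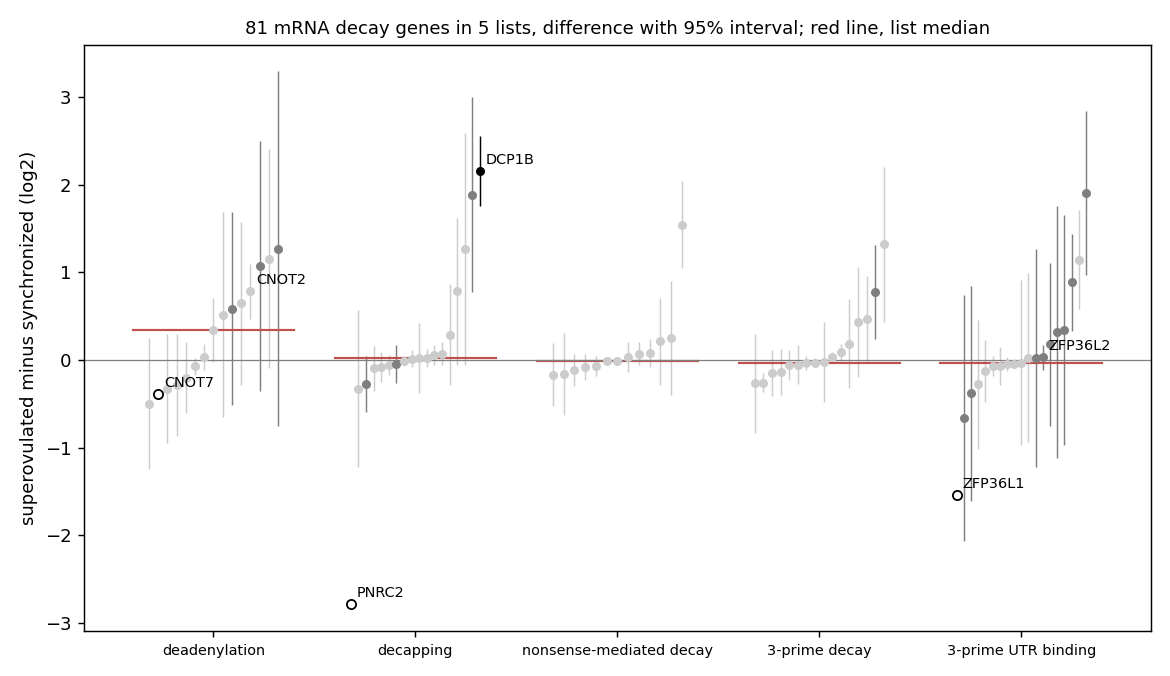
Superovulated minus synchronized difference (log2, with 95% interval) of the 81 measured mRNA decay genes in 5 lists; black, adjusted p below 0.05; dark grey, mean above log2 4; light grey, dimmer; red lines, list medians; open circles with no interval, the picked genes PNRC2, CNOT7 and ZFP36L1. Most genes lie near 0, with DCP1B at 2.15 and PNRC2 at -2.78 at the ends of the decapping list.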

How the data were processed

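Blastocyst RNA from 6 samples, 3 per group, was measured on 1-colour Affymetrix arrays. The authors deposited log2 values for each probe set on each array, made with GCRMA per the submitters' processing notes (version and joint normalization not given in the sources used here). They ran from 1.45 to 15.97 and were used unscaled. Detection calls were not analysed here. From 24128 probe sets, 112 controls were set aside, leaving 24016. Symbols came from GEO's platform annotation (13292 probe sets with 1 symbol, 86 with several, 10638 with none); 13263 matched the ARS-UCD2.0 gene table by identifier, with 0 symbols changed.

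Groups were taken from the sample titles and compared by limma (version 3.58.1, R version 4.3.3; lmFit, eBayes, group only, two-sided, Benjamini-Hochberg over all probe sets, call at adjusted p below 0.05), tested on simulated data. Members, gene lists, tests and alternatives were chosen with earlier results of these data known. Named genes were all probe sets of the members, list genes that passed, the 4 non-members per list with the smallest p (DCP1B, which passed, among them), and the 4 genes nearest in pattern; the single markers, XRN2, MEX3C, ZFP36, EDC3, EDC4, DCP1A and PATL1 were named after their values were seen. With 3 arrays per group, the array number limits precision. Alternatives covered scaling, dim probe sets, variance model, array weights, a replicate block and left-out arrays.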

Additional observations from a re-analysis of the deposited data

How the results depend on the processing

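As deposited, 172 probe sets passed, 1 of them of a decay factor (PNRC2), and 2 of the 81 list genes passed (PNRC2 and DCP1B). In that order, the counts were 28, 0 and 1 after a second quantile normalization, 149, 0 and 1 with median centring, 50, 0 and 1 with an intensity trend, 515, 2 and 6 with array quality weights (CNOT2 then passed, adjusted p = 0.0171), and 529, 2 and 4 with centring on bright probe sets. Testing the 1406 bright probe sets alone gave 441, 1 and 3. There the last count was out of 18 list genes, as DCP1B and the other dimmer ones were not tested. Centring on bright probe sets shifted the median of all probe sets to -0.72, left 39.9% of calls as rises against 97.1% as deposited, and gave limma an unlimited prior weight on the common variance, under which ZFP36L1 passed as well. With those probe sets alone tested, a setting chosen after seeing the data, it gave 229, 1 and 3, the last again out of 18 list genes. Leaving out 1 array gave 26 to 137, 0 to 1 and 0 to 2. PNRC2 was picked for its difference, so nothing is read from its call. That call was kept without synchronized array 2 and lost without any of the other 5 arrays. The PNRC2 difference stayed between -3.48 and -2.56 over all 15 alternatives, a direction its choice had fixed. Leaving out both superovulated array 3 and synchronized array 2 gave 1, 0 and 0. There 2447 of 24016 probe sets had an unadjusted p below 0.05 in limma. Of the decay factors, 2 of 9 probe sets did, those of CNOT2 and PNRC2. Of same-numbered arrays, those numbered 1 deviated together (correlation 0.54), while those numbered 2 and 3 did not (-0.40 and -0.41). The highest correlation joined differently numbered arrays, superovulated 3 and synchronized 2 (0.69). Other differently numbered pairs ran from -0.59 to 0.31. A fit with the replicate block gave 0, 0 and 0. In that fit 1382 of 24016 probe sets had an unadjusted p below 0.05 in limma, with the same 2 decay factor probe sets. As PNRC2 was picked for its difference, nothing is read from its place in these counts. Signals near background limit what CNOT2 and the second probe sets can show.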
